A study of Mus musculus with 27 samples.

Results

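This report describes the 7 genes that write, copy and erase DNA methylation in mouse cells, as read in MC38 tumour tissue. The members were taken by name from the deposited table and are the writers Dnmt1, Dnmt3a and Dnmt3b, their partner Uhrf1, and the erasers Tet1, Tet2 and Tet3. All 7 were found, out of 19615 measured targets.

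DNA methylation in mammals is the addition of a methyl group to cytosine, mostly where a cytosine is followed by a guanine (CpG). Dnmt3a and Dnmt3b set new methyl marks, whereas Dnmt1 copies the marks of the parent strand onto the daughter strand after replication, to which it is brought by Uhrf1, a protein that binds hemimethylated CpG. Tet1, Tet2 and Tet3 are dioxygenases that use oxygen, iron and alpha-ketoglutarate to oxidise methylcytosine, after which the base is lost by dilution or cut out by base excision repair. In tumours, loss of TET activity and of DNMT3A is best known from blood cancers, and gain of methylation at CpG-rich promoters is a common feature of colorectal cancer.

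MC38 is a mouse colorectal cancer cell line. Cells were injected into the portal vein of 2-month-old C57BL/6 mice, where they form liver metastases, and frozen sections were hybridised with the GeoMx whole transcriptome probe panel, in which a photocleaved tag stands for each bound probe. Regions were chosen after staining for pan-cytokeratin, desmin and nuclei, and the desmin-negative part of each region was read as the cancer cell segment. There were 14 regions from metastases of Control MC38 cells and 13 from metastases of MC38 cells labelled CMTM6 knockdown, a line made with lentiviral shRNA against the membrane protein gene Cmtm6. The study used 3 mice per group, so some regions shared an animal, no label says which mouse a region came from, and every p-value over regions below is therefore too small and every interval too narrow. All mice carried the same tumour line in a host with intact immunity, so tags of liver and immune cells that lie between tumour cells can enter a segment. Regions are numbered within each group.

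The targeted gene did not separate the groups. Cmtm6 (chr9:114731116-114749344) read 634 ± 56.2 (SD, n = 14) in control regions and 610 ± 85.0 (SD, n = 13) in the others, a log2 difference of -0.06 (SE 0.07, limma adjusted p = 0.631), so the groups are called control and knockdown-labelled throughout. The study's text gives the sizes of the groups as the labels do in one place and the other way round in another; the labels were used, and exchanged labels would turn the sign of every difference below. The epithelial markers that define the stained cell type were also weak: of 10, only Krt8 was above background, and their summed readings ranged from 1480 to 1722 in control and from 1521 to 1681 in knockdown-labelled regions. Of 16 measured hepatocyte markers 6 were higher in knockdown-labelled regions (sums of 2448 to 7341 against 2561 to 15123), and so were 7 of 18 T or NK cell markers (sums of 2580 to 4042 against 3209 to 5437); no marker was at 0. Region totals were taken in units of the step of which nearly all deposited values of a region are multiples. They ranged from 9977867 to 26328208 in control and from 4223034 to 19827296 in knockdown-labelled regions. In such mixed segments, fewer cells of a type and less RNA per cell cannot be told apart.

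Values below are probe readings on a common scale, on which the regions share one median over the targets, because the authors' normalization had been run on each label group alone. On the deposited values the median gene lay 0.54 lower on the log2 scale in knockdown-labelled regions (-0.54), and after the common scale this was -0.04, so each difference is relative to the other genes. Readings of different probes are not on one scale per transcript, and levels are compared between regions only, never between genes. A gene was called above background when its mean log2 reading exceeded percentile 95 of 1125 chemosensory receptor genes (olfactory, vomeronasal, taste and trace amine families), which lies at a reading of 197.

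The promoters of the members show the letters that these enzymes act on. The windows are the 250 bases before an annotated RefSeq start (build GRCm38.p6), and 12 such windows matched the 7 members. Of these, 3 are printed, those of Tet2, whose reading differed between the groups, and of Dnmt1 and Uhrf1, whose readings moved together; each is written 5′ to 3′ on the gene's strand with every CG in capitals.

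Tet2, chr3:133544391-133544640, minus strand: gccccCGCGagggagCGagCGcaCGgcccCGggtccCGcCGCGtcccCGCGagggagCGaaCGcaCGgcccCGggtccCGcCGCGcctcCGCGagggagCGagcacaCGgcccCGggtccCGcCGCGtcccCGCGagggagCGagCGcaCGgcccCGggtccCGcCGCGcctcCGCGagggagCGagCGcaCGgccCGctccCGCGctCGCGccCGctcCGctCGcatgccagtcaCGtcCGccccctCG

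Dnmt1, start with the most CG of 3, chr9:20952624-20952873, minus strand: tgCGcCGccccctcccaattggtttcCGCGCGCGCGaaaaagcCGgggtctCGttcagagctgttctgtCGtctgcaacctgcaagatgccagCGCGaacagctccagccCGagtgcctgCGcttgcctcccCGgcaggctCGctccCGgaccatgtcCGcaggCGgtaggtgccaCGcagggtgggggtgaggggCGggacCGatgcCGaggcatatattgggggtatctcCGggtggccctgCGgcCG

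Uhrf1, start with the most CG of 2, chr17:56304063-56304312, plus strand: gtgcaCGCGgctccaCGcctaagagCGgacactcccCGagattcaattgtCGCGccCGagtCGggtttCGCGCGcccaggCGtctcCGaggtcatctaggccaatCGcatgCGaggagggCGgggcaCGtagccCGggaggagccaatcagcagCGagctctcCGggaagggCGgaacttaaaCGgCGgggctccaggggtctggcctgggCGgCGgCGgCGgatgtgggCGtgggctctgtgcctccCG

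The Tet2 window holds 51 CG in 250 bases and is 83.6% G or C, which places it at percentile 99.9 of 32851 promoter windows, whose median is 6 CG. It is built of near-copies of a short GC-rich unit, visible in the letters above. The Uhrf1 window holds 30 CG (percentile 94.1) and the Dnmt1 window 26 (percentile 90.4). The other starts of Dnmt1 had 7 and 2 CG, the other start of Uhrf1 had 10, and those of Dnmt3a had 40, 38 and 15. Dnmt3b had 21, Tet3 17 and Tet1 15, so that 11 of the 12 windows exceeded the median of all promoters. The letters TTTCCCGC and TTTGGCGC, 2 forms of the site that E2F factors of S phase genes bind, were searched on both strands. They occurred in 0 of the 12 windows, against 1.30% of all promoters. Other forms were not searched. Of these, tttCGCGC stands in the printed Uhrf1 window, and its complement GCGCGaaa in that of Dnmt1. Whether the windows lack E2F sites therefore cannot be read from this search. The core letters of the hypoxia-inducible factors, ACGTG and GCGTG, were found on either strand in 4 windows (Tet2 1 match, the printed Dnmt1 start 1, the third Dnmt3a start 2 and the printed Uhrf1 start 4), against 38.6% of all promoters. The 2 matches of Dnmt3a overlap in the letters CACGTG, which read the same on both strands, so they mark a single site. These are matches of letters, and DNA methylation itself was not measured.

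Between the groups, 1 of the 7 members was lower in knockdown-labelled regions and none was higher at an adjusted p of 0.05, against 2.58% of all targets that were lower (507) and 1.31% that were higher (256). With the same total 146 targets were lower and 257 higher, and with housekeeping scaling, which moved the median of all genes to 0.07, 53 were lower and 470 higher. The member that passed was Tet2, with a log2 difference of -0.23. At an unadjusted p under 0.05 Dnmt3b was higher and no further member differed. The rank-sum test called 0 of the 7.

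**Figure D1:**
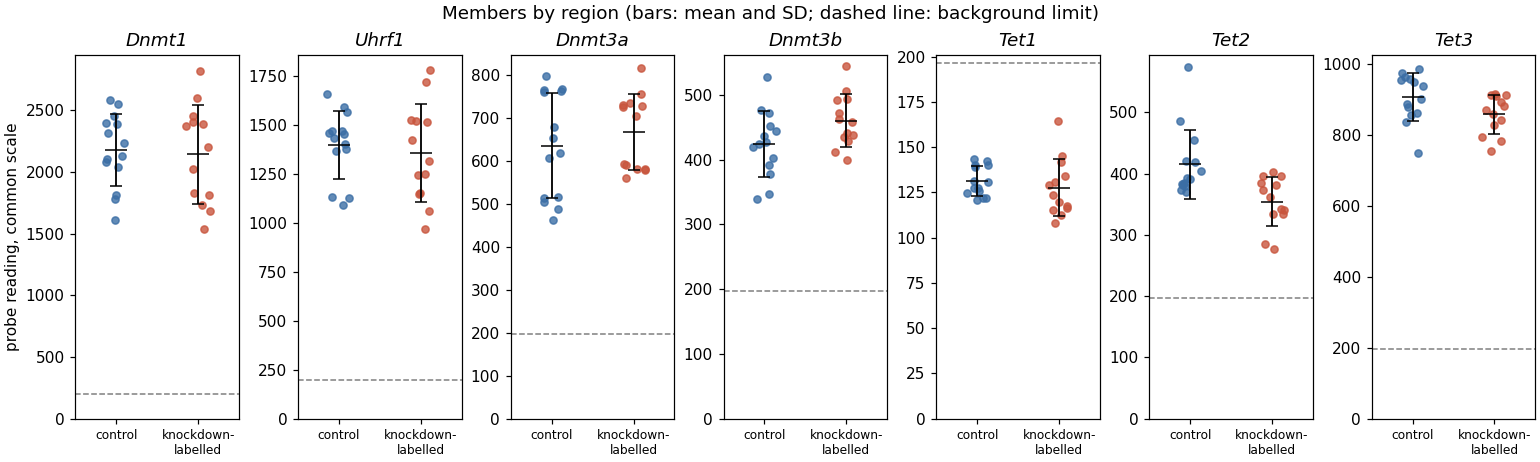
Probe reading on the common scale (y axis, linear, from 0) of the 7 members in 14 control and 13 knockdown-labelled regions; each point is a region, bars give mean and SD, and the dashed line is the background limit of 197. Tet1 lies under the line in all 27 regions, the other members above it, and Tet2 is the member whose knockdown-labelled regions sit lowest against control.

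Among the erasers, Tet2 (ENSMUSG00000040943.12, chr3:133463679-133545139, minus strand) read from 370 to 575 in control regions with a median of 392, and from 276 to 403 in knockdown-labelled regions with a median of 363. The groups overlapped, but 7 knockdown-labelled regions lay below every control region, 6 control regions lay above every knockdown-labelled one, and each of the 13 knockdown-labelled regions read less than the control mean. Against the control median, 10 of the 13 read less and 3 read more. The highest reading was in control region 6 and the lowest in knockdown-labelled region 13. The means were 416 ± 56.4 (SD, n = 14) and 355 ± 40.8 (SD, n = 13), a log2 difference of -0.23 (SE 0.07, 95% interval -0.36 to -0.09, limma adjusted p = 0.0414), or 0.854-fold. Among all genes this difference lay at percentile 3.81, where percentile 0 is the most negative.

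The call for Tet2 stood near the threshold, while its sign was negative under every alternative run. It was lost with the same total (-0.17, adjusted p = 0.161), the same upper quartile (-0.19, 0.114) and housekeeping scaling (-0.12, 0.357), and it passed as deposited (-0.73, 1.32e-12). Leaving out single regions gave differences of -0.24 to -0.19 with adjusted p of 0.0272 to 0.0803, and the call was lost without control region 2, 3, 5, 6, 7, 8 or 10, or without knockdown-labelled region 1, 3, 8, 10, 11 or 13. The list of T or NK cell markers was higher in knockdown-labelled regions (mean log2 of 7.44 ± 0.16 in control and 7.71 ± 0.18), and with it as a covariate the Tet2 difference was -0.12 (adjusted p = 0.462). With the log2 total it was -0.13 (adjusted p = 0.516), and with the hepatocyte list -0.25 (adjusted p = 0.0713). Few of all targets passed with the T or NK cell list (1 higher, 2 lower) or with the log2 total (23 higher, 4 lower).

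Tet3 (ENSMUSG00000034832.15, chr6:83362373-83459084, minus strand) read from 748 to 986 in control regions with a median of 920, and from 756 to 915 in knockdown-labelled regions with a median of 870. Each of the 13 knockdown-labelled regions read less than the control median, and 7 control regions lay above every knockdown-labelled one. Against the control mean, 9 of the 13 read less and 4 read more. The means were 907 ± 66.7 (SD, n = 14) and 858 ± 54.1 (SD, n = 13), a log2 difference of -0.08 (SE 0.05, 95% interval -0.18 to 0.02, limma adjusted p = 0.386) that did not pass and was 0.03 under housekeeping scaling. Tet3 was the steadiest member: its SD within groups was 0.10 on the log2 scale, at percentile 3.07 of the genes above background.

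Tet1 (ENSMUSG00000047146.17, chr10:62804570-62908996, minus strand), the TET gene best known from embryonic stem cells, was under the background limit in 27 of 27 regions. It read from 121 to 143 in control and from 108 to 165 in knockdown-labelled regions, with means of 131 ± 8.27 (SD, n = 14) and 128 ± 15.8 (SD, n = 13). A reading of this size is that of a probe for an olfactory receptor, and whether any Tet1 transcript was present cannot be read from it. The log2 difference was -0.05 (SE 0.05, limma adjusted p = 0.657), and it was above 0 with the same total (0.01) and with housekeeping scaling (0.06).

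Among the writers, Dnmt1 (ENSMUSG00000004099.16, chr9:20907209-20959888, minus strand) did not differ beyond the spread between regions. It read from 1615 to 2584 in control regions with a median of 2181, and from 1539 to 2818 in knockdown-labelled regions with a median of 2204. The means were 2178 ± 296 (SD, n = 14) and 2142 ± 399 (SD, n = 13), a log2 difference of -0.03 (SE 0.09, 95% interval -0.21 to 0.14, limma adjusted p = 0.868). The sign turned with the scaling, to 0.02 with the same total and 0.08 with housekeeping genes.

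Uhrf1 (ENSMUSG00000001228.14, chr17:56303321-56323486, plus strand) followed the same course. Its readings ran from 1092 to 1655 in control and from 970 to 1777 in knockdown-labelled regions, so that the control regions lay wholly within the range of the others. The means were 1398 ± 173 (SD, n = 14) and 1355 ± 248 (SD, n = 13), with a log2 difference of -0.06 (SE 0.08, 95% interval -0.22 to 0.11, limma adjusted p = 0.740) that turned to 0.06 with housekeeping scaling.

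The de novo writers read slightly higher in knockdown-labelled regions without passing the test. Dnmt3b (ENSMUSG00000027478.15, chr2:153649450-153687730, plus strand) read from 339 to 528 in control and from 399 to 544 in knockdown-labelled regions, of which 11 of 13 lay above the control mean. The means were 424 ± 51.1 (SD, n = 14) and 460 ± 40.8 (SD, n = 13), a log2 difference of 0.12 (SE 0.06, 95% interval 0.0012 to 0.24, limma adjusted p = 0.236). It passed with housekeeping scaling (0.23, adjusted p = 0.0343) and in the opposite direction as deposited (-0.38, adjusted p = 2.43e-08).

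Dnmt3a (ENSMUSG00000020661.15, chr12:3806007-3914443, plus strand) read from 463 to 798 in control and from 561 to 816 in knockdown-labelled regions. The 5 lowest of all 27 readings, 463 to 516, were those of control regions 6, 7, 8, 9 and 10, while the other control regions read 606 to 798; the labels do not say whether neighbouring numbers share a section or a mouse. The means were 636 ± 122 (SD, n = 14) and 668 ± 87.9 (SD, n = 13), a log2 difference of 0.08 (SE 0.09, 95% interval -0.09 to 0.26, limma adjusted p = 0.616), which was -0.05 with the hypoxia list as a covariate.

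**Figure D2:**
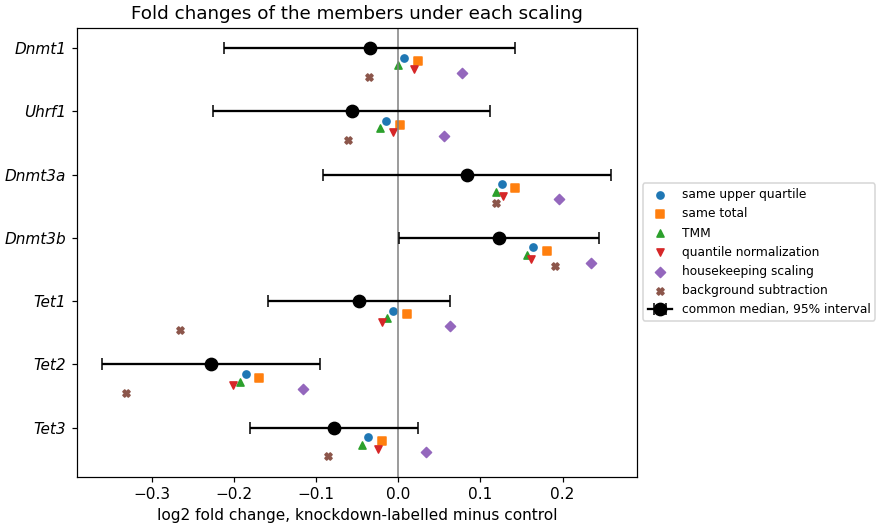
Log2 difference, knockdown-labelled minus control (x axis), of each member (rows) on the common scale with its 95% interval in black, and under 6 other scalings as coloured symbols. Tet2 stays below 0 and Dnmt3a and Dnmt3b above 0 under the scalings drawn, while the symbols of Dnmt1, Uhrf1, Tet1 and Tet3 lie on both sides of 0.

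A ratio of 2 members within a region does not change with the scaling of that region. The Tet2 to Tet3 ratio ranged from 0.402 to 0.590 in control and from 0.329 to 0.477 in knockdown-labelled regions, and 11 of those 13 fell short of the control mean. Its log2 difference was -0.15 (95% interval -0.28 to -0.02, permutation p = 0.0253, adjusted p = 0.127 over 5 ratios), which did not pass the correction. The Tet2 to Tet1 ratio differed by -0.18 (permutation p = 0.0648, adjusted p = 0.162), with a denominator at background. The Dnmt1 to Uhrf1 ratio was close to constant, from 1.43 to 1.75 in control and from 1.35 to 1.86 in knockdown-labelled regions, with a difference of 0.02 (95% interval -0.05 to 0.10, permutation p = 0.561, adjusted p = 0.645). For Dnmt3a to Dnmt3b the difference was -0.04 (95% interval -0.18 to 0.10, permutation p = 0.572, adjusted p = 0.645), and for Tet1 to Tet3 it was 0.03 (95% interval -0.10 to 0.17, permutation p = 0.645, adjusted p = 0.645).

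Across the regions, the 4 writer genes varied together: each of their 6 pairs had an r of 0.444 or more, and 1 of the other 15 pairs passed the adjustment. Correlations were taken over the 27 regions after centring within each group, with permutation within groups and adjustment over 21 pairs; the regions share mice, depth and the common scale. Dnmt1 and Uhrf1 had a Pearson r of 0.916 and a Spearman rho of 0.874 (permutation p = 1e-05 each, the smallest that the permutations can give; adjusted p = 0.00021), with r = 0.916 in control regions, 0.916 in knockdown-labelled regions and 0.892 without the 2 regions farthest from the median of Dnmt1. Dnmt3a and Dnmt3b followed with r = 0.696 and rho = 0.683 (permutation p = 0.0001 and 0.00029, adjusted p = 0.00105 and 0.00304), and with 0.614 without the 2 farthest regions. The pairs that join maintenance to de novo writers were weaker, with r of 0.444 to 0.482 and rho of 0.470 to 0.517 (permutation, adjusted p of r of 0.0379 to 0.0517).

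Tet2 and Tet3 had r = 0.408 and rho = 0.407 (permutation p = 0.0413 and 0.0388, adjusted p = 0.0867 and 0.0905), which fell to 0.380 without the 2 farthest regions and did not pass. No pair of Tet2 with a writer passed, with r of -0.258 to -0.031. Each of these 4 pooled values averages opposite signs, with r in control and knockdown-labelled regions of -0.360 and 0.141 for Dnmt1, -0.397 and 0.453 for Dnmt3a, -0.620 and 0.290 for Dnmt3b, and -0.503 and 0.336 for Uhrf1; the difference between the groups was not tested. Tet1 and Dnmt3b had r = -0.465 and rho = -0.499 (permutation p = 0.00745 and 0.00819, adjusted p = 0.0379 and 0.0383; -0.504 without the 2 farthest), in which the reading of Tet1 is a background reading.

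The S phase list holds 23 replication genes and none of the 7 members, though Dnmt1 and Uhrf1 are known to be made in S phase. Its mean log2 reading ranged from 10.1 to 10.7 in control and from 10.0 to 10.8 in knockdown-labelled regions, and 0 of its 23 genes passed the test between the groups in either direction (median log2 difference -0.04, with -0.04 over all genes). Rrm2, of ribonucleotide reductase, read 6982 ± 1128 and 6585 ± 1189 (-0.09, limma adjusted p = 0.631), and Gins2, of the replicative helicase, 949 ± 147 and 1037 ± 169 (0.13, 0.397). Region by region it ran with Uhrf1 (r = 0.969, rho = 0.949; permutation p = 1e-05 each, adjusted p = 0.000175 over 35 relations) and with Dnmt1 (r = 0.934, rho = 0.898; permutation p = 1e-05 each, adjusted p = 0.000175). Within groups r was 0.960 and 0.979 for Uhrf1 and 0.969 and 0.913 for Dnmt1, and without the 2 farthest regions 0.964 and 0.909.

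The de novo writers ran less closely with the same list, Dnmt3a with r = 0.515 and rho = 0.555 (permutation p = 0.00546 and 0.00318, adjusted p = 0.0382 and 0.0251) and Dnmt3b with r = 0.487 and rho = 0.516 (permutation p = 0.00918 and 0.00742, adjusted p = 0.0535 and 0.0433). Tet3 had r = 0.457 and rho = 0.346 (permutation p = 0.017 and 0.0829, adjusted p = 0.0542 and 0.207), with r = 0.151 without the 2 farthest regions. The background reading of Tet1 had r = -0.222 (permutation p = 0.306, adjusted p = 0.511). For Tet2 r was 0.0588 (rho = 0.0885; permutation p = 0.773 and 0.666, adjusted p = 0.872 and 0.804), from -0.343 in control and 0.426 in knockdown-labelled regions, a difference that was not tested. In a fit with the S phase list as a covariate the Tet2 difference between the groups stayed at -0.23 (adjusted p = 0.0255).

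**Figure D3:**
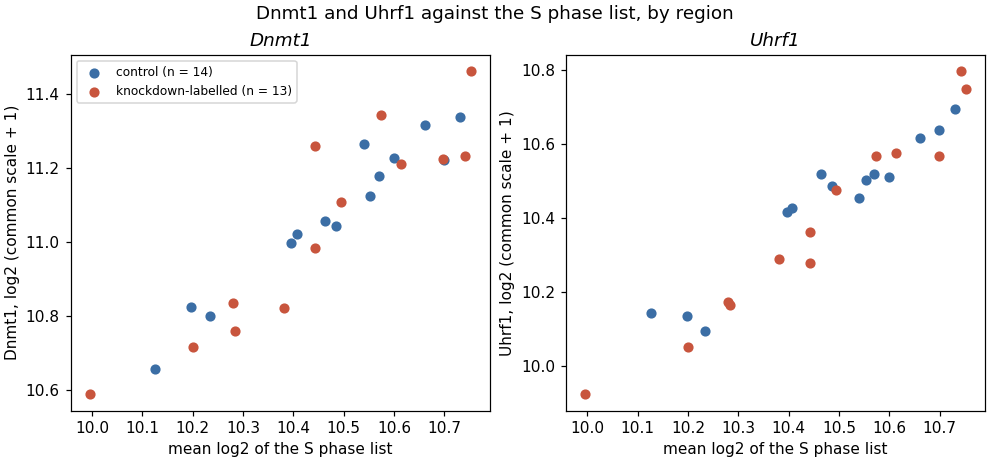
Log2 reading of Dnmt1 and Uhrf1 (y axes) against the mean log2 of the 23 S phase genes (x axis), each point a region, control in blue (n = 14) and knockdown-labelled in red (n = 13). Both genes rise along the list with r of 0.934 and 0.969 after centring within groups, and the groups lie along the same line.

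The 20 genes of the hypoxia list, which are induced in cells short of oxygen, differed more between the groups than the members did. Of them 12 were lower in knockdown-labelled regions and none higher, with a median log2 difference of -0.52, and the mean log2 of the list was 10.4 ± 0.52 (SD, n = 14) in control and 9.92 ± 0.15 (SD, n = 13) in knockdown-labelled regions. Vegfa, the angiogenic growth factor, fell from 1124 ± 611 to 575 ± 106 (-0.85, SE 0.19, limma adjusted p = 0.0148), and Ldha, lactate dehydrogenase, from 7509 ± 2256 to 5049 ± 682 (-0.53, SE 0.11, limma adjusted p = 0.0107). The highest list means were 11.6 in control region 6 and 11.3 in control region 7 against a control median of 10.2. Without both, 7 of the 20 genes were lower. The count was also 6 without control region 3 or 8 or knockdown-labelled region 8, and 7 without control region 6 or 11 or knockdown-labelled region 1 or 11. It was 5 with the same total or the same upper quartile, 2 with housekeeping scaling, and 0 with a covariate for the log2 total or for T or NK cells, while the difference of all 20 genes was below 0 under each of the 6 other scalings. The 12 that passed ranged from -0.85 to -0.25, where the smallest was Kdm3a, a histone demethylase that like the TETs uses alpha-ketoglutarate, at 685 ± 125 and 570 ± 46.2 (limma adjusted p = 0.0429).

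Tet2 moved with that list. Over the 27 regions r was 0.663 and rho 0.592 (permutation p = 0.00015 and 0.00118, adjusted p = 0.00175 and 0.0138), with r = 0.861 in control regions and 0.324 in knockdown-labelled ones, and with 0.439 (permutation p = 0.00852) without control regions 6 and 7. Control region 6 held both the highest Tet2 reading, 575, and the highest hypoxia mean. Without control regions 6 and 7 the Tet2 difference between the groups was -0.18 (limma adjusted p = 0.113), and with the hypoxia list as a covariate -0.08 (limma adjusted p = 0.755). With that covariate 0 of all targets passed in either direction; the list mean itself differed between the groups, and the part of hypoxia and of the label in the Tet2 reading cannot be told apart. No other member passed with the hypoxia list, where r was 0.182 for Tet3, -0.434 for Dnmt3a, -0.381 for Dnmt3b, -0.307 for Uhrf1, -0.197 for Dnmt1 and 0.089 for Tet1 (rho 0.151, -0.403, -0.251, -0.202, -0.064 and 0.089, permutation, adjusted p of r of 0.131 to 0.747).

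The region total also ran with Tet2 (r = 0.534, rho = 0.471; permutation p = 0.00427 and 0.0152, adjusted p = 0.0374 and 0.0761), at 0.229 in control and 0.789 in knockdown-labelled regions, and 0.406 without the 2 farthest regions. Tet3 ran against the T or NK cell list (r = -0.473, rho = -0.558; permutation p = 0.014 and 0.00358, adjusted p = 0.0542 and 0.0251). So did Uhrf1 (r = -0.493, rho = -0.410; permutation, adjusted p = 0.0542 and 0.126) and Dnmt1 (r = -0.485, rho = -0.440; permutation, adjusted p = 0.0542 and 0.104). With that list r was -0.402 for Tet2, -0.391 for Dnmt3a, -0.306 for Dnmt3b and 0.041 for Tet1, and none of these passed. The part of depth and of immune cells in these readings was not tested further.

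**Figure D4:**
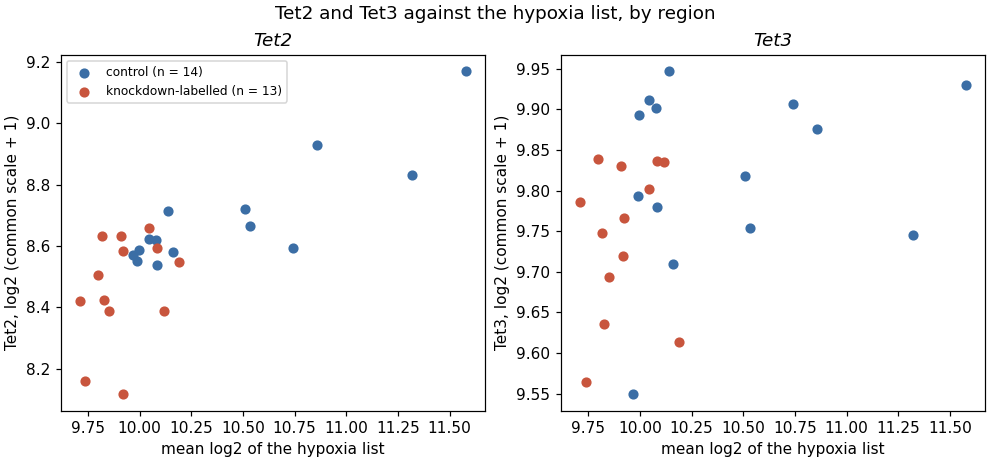
Log2 reading of Tet2 and Tet3 (y axes) against the mean log2 of the 20 hypoxia genes (x axis), each point a region, control in blue (n = 14) and knockdown-labelled in red (n = 13). Tet2 rises along the list, with control regions 6 and 7 at the far right, and Tet3 shows no such slope (r of 0.663 and 0.182).

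Around the writers, 0 of 16 partner genes passed in either direction, with a median log2 difference of -0.05. These are genes that guide or assist methylation. Dnmt3l, the inactive relative that stimulates the de novo writers, read 304 ± 113 in control and 249 ± 45.7 in knockdown-labelled regions (-0.24, SE 0.14, limma adjusted p = 0.326). Nsd1, a histone methyltransferase whose mark recruits the de novo writers, read 444 ± 40.9 and 501 ± 62.7 (0.17, SE 0.06, limma adjusted p = 0.102), and Nsd2 of the same family 2338 ± 227 and 2185 ± 321 (-0.11, limma adjusted p = 0.414). Dppa3, an oocyte factor that keeps Uhrf1 from chromatin, read 319 ± 28.0 and 345 ± 49.3 (0.10, limma adjusted p = 0.357). Pcna, the replication clamp that is also in the S phase list, read 4144 ± 723 and 4343 ± 1068, and the histone methyltransferase Ehmt2 read 3883 ± 465 and 3846 ± 406.

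The 10 genes of the reader list belong to the families of proteins that bind methylated CpG, though not every member binds it. None of the 10 was higher in knockdown-labelled regions. Their median log2 difference was -0.10, which was 0.01 with housekeeping scaling. Mbd6 read 1264 ± 116 and 1133 ± 118 (-0.16, limma adjusted p = 0.128), Zbtb4 252 ± 18.7 and 229 ± 28.8 (-0.14, 0.156), and Mbd3, a subunit of the NuRD complex, 3040 ± 394 and 2769 ± 507 (-0.14, 0.353). Mbd2, its methyl-binding relative, was level at 2365 ± 154 and 2382 ± 164 (0.01, limma adjusted p = 0.947).

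Of the 18 measured genes that work with the TETs or complete the removal by base excision repair, 1 passed, and the log2 difference of all 18 was below 0 (median -0.09, with -0.04 over all genes). That direction rests on the scaling: 12 of the 18 were below 0 with the same total and 7 with housekeeping scaling, where the median was 0.02. Smug1, a glycosylase that removes oxidised bases, read 327 ± 23.1 in control and 289 ± 22.3 in knockdown-labelled regions (-0.18, SE 0.05, limma adjusted p = 0.0320), and -0.19 with an adjusted p of 0.0399 without control regions 6 and 7. The count was 0 under TMM, the same total, the same upper quartile, housekeeping scaling and background subtraction, with the log2 total, hypoxia, T or NK cell or hepatocyte covariate (Smug1 with hypoxia -0.18, adjusted p = 0.391), and when control region 2, 3 or 6 or knockdown-labelled region 8, 10 or 11 was left out. Tdg, the glycosylase that cuts out the TET products, read 783 ± 83.4 and 712 ± 80.3 (-0.14, SE 0.06, limma adjusted p = 0.203), the ligase Lig3 358 ± 47.7 and 318 ± 33.9 (-0.17, 0.131), and the glycosylase Neil3 1098 ± 159 and 985 ± 129 (-0.15, 0.235). Apex1, which cuts the abasic site, read 1906 ± 312 and 1758 ± 373 (-0.13, limma adjusted p = 0.485), and Parp1 1738 ± 237 and 1660 ± 283 (-0.07, 0.658).

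The supply of methyl groups held the largest differences of these lists other than hypoxia: 6 of 21 genes were lower, none higher, and the median was -0.14. The 6 belong to the mitochondrial folate path and to serine synthesis. Shmt2, which takes the methylene group from serine, fell from 5975 ± 1164 to 4378 ± 808 (-0.44, SE 0.10, limma adjusted p = 0.0150), Mthfd2 from 3601 ± 870 to 2655 ± 473 (-0.42, 0.0398), Mthfd1l from 991 ± 170 to 751 ± 119 (-0.39, 0.0148) and Aldh1l2 from 942 ± 493 to 500 ± 79.1 (-0.79, 0.0172). Of the serine path, Psat1 fell from 6726 ± 1184 to 5345 ± 810 (-0.32, SE 0.09, limma adjusted p = 0.0374) and Psph from 1406 ± 301 to 1054 ± 192 (-0.41, 0.0306).

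For 3 further genes of the list that did not pass, the values were as follows, with no test of a difference from the 6. Mat2a, which makes S-adenosylmethionine, read 5173 ± 841 and 4618 ± 720 (-0.16, SE 0.09, limma adjusted p = 0.279) and Ahcy, which clears its product, 3779 ± 636 and 3287 ± 809 (-0.22, 0.235). Phgdh, the entry to serine synthesis, read 1319 ± 102 and 1265 ± 117 (-0.06, 0.561); these 3 were chosen for their place in the pathway after their values were seen. Without control regions 6 and 7, 3 of the 21 were lower (Mthfd1l, Shmt2 and Aldh1l2), the count was 3 without control region 3, 6 or 8 or knockdown-labelled region 8 or 10, and it was 0 with the T or NK cell list, the hypoxia list or the log2 total as a covariate. It was 4 with the same total, the same upper quartile, TMM, housekeeping scaling, background subtraction or the rank-sum test, and 2 with the hepatocyte list. With quantile normalization the count was 6, with region weights 7 and with the S phase list 9.

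Of the 18 genes that make or compete with alpha-ketoglutarate or carry ascorbate, the TET cofactors, 0 passed in either direction (median -0.02). Idh3b, a subunit of the mitochondrial isocitrate dehydrogenase, read 908 ± 70.4 and 812 ± 137 (-0.18, SE 0.07, limma adjusted p = 0.150) and the aminotransferase Got1 865 ± 192 and 744 ± 119 (-0.20, 0.206). Sdhb of succinate dehydrogenase, whose substrate inhibits the TETs, read 2805 ± 347 and 2734 ± 427 (-0.04, 0.801).

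The 14 germline genes of the last list are known to be kept silent by promoter methylation in somatic cells, which was not measured here. None of the 14 was above background in these regions. Brdt, a testis bromodomain gene, passed the test from one reading under background to another, at 187 ± 24.1 in control and 151 ± 27.4 in knockdown-labelled regions (-0.32, SE 0.08, limma adjusted p = 0.0191). None of the list passed with the same upper quartile, the same total, housekeeping scaling or background subtraction, or with the log2 total, hypoxia or T or NK cell covariate. The meiosis gene Sycp1 read 94.1 ± 10.8 and 80.1 ± 13.2 (-0.24, limma adjusted p = 0.0641), and Dazl, a marker of germ cells, 153 ± 12.2 and 159 ± 12.5 (0.06, 0.531).

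**Figure D5:**
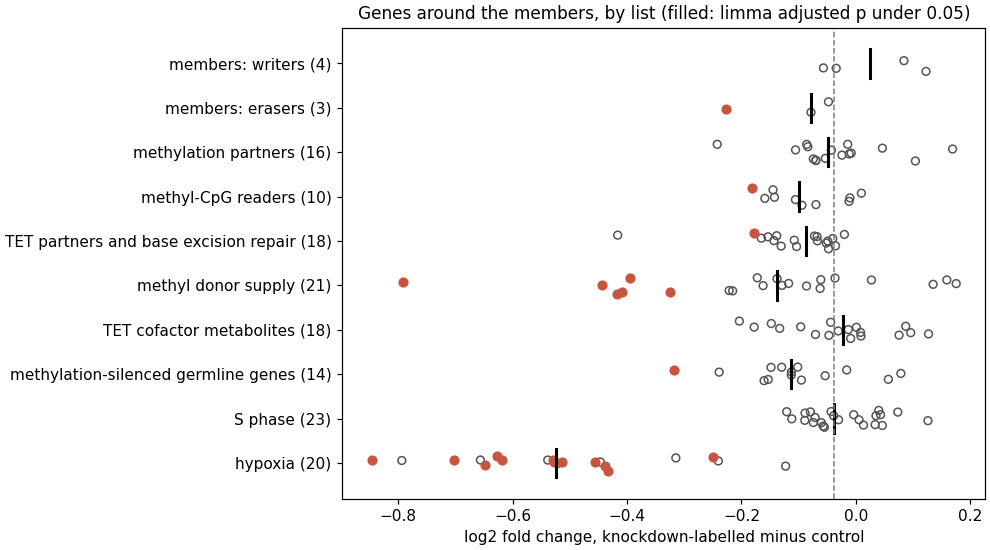
Log2 difference, knockdown-labelled minus control (x axis), of the members and of the 8 lists around them (rows, number of measured genes in brackets); each circle is a gene, filled where the limma adjusted p was under 0.05, black bars give list medians and the dashed line the median of all genes, -0.04. Filled circles lie on the left only, 12 in the hypoxia list, 6 in methyl donor supply and 1 among the erasers, Tet2.

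Which genes ran most like each member was read as the Pearson r over the 27 regions after centring within groups, among the 10799 genes above background, as a description of these regions. Tet2 was most like Fam114a2 (0.828), Scpep1 (0.803), Bnip3l (0.800), Ankzf1 (0.795) and Ube2w (0.794), of which Fam114a2 (-0.24, limma adjusted p = 0.0457) and Ankzf1 (-0.38, 0.00433) were also lower in knockdown-labelled regions. Tet3 was most like Ppm1a (0.812), Zkscan1 (0.794), Stk25 (0.791), Rnf166 (0.787) and Rmnd5a (0.776).

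Dnmt1 was most like Impdh2 (0.946), Mcm7 (0.939), Anln (0.938), Mcm3 (0.934) and Mcm2 (0.932), and Uhrf1 most like Mcm3 (0.954), Rrm1 (0.954), Mcm6 (0.954), Sumo2 (0.952) and Ercc6l (0.951). The Mcm genes encode the replicative helicase, and with Rrm1, a subunit of ribonucleotide reductase, they belong to the S phase list. Dnmt3a was most like Mxd4 (0.926), Lrp5 (0.911), Pdcd4 (0.905), Ech1 (0.898) and Acadsb (0.897), and Dnmt3b like Atn1 (0.850), Pced1a (0.850), Miga2 (0.843), Col5a1 (0.843) and Serf2 (0.840). The de novo writers shared none of these neighbours with each other or with the maintenance pair.

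The members also differed in how much they varied between regions of 1 group. The SD within groups, on the log2 scale, was 0.24 for Dnmt1 and Dnmt3a and 0.23 for Uhrf1, which lay at percentiles 82.2, 82.7 and 79.2 of the genes above background. It was 0.18 for Tet2 (percentile 52.6) and 0.15 for Dnmt3b (percentile 35.2).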

How the data were processed

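Tags photocleaved from 27 desmin-negative segments were sequenced, counted per target and processed in the GeoMx DSP Analysis Suite, of which the versions were not stated in the sources read. The authors deposited normalized signal, with 19615 targets in rows and 27 regions in columns, mapped by the region numbers of the labels. Percentile 75 of this signal was 788 ± 1.45 (SD, n = 14) over control and 539 ± 0.959 (SD, n = 13) over knockdown-labelled regions, a ratio of 1.46, so that each group had been normalized alone.

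Each region was therefore divided to one common median over the targets, and log2(value + 1) was tested with limma 3.58.1 in R 4.3.3 (trend and robust settings, both directions, with Benjamini-Hochberg adjustment for 19615 targets and a threshold of 0.05). Fold changes on that scale are understated for low genes. In every region at least 99.96% of values were multiples of a single step, within a tolerance of 0.01. The sum in steps served as the region total, with a mean of 17598705 ± 5035582 in control and 12293959 ± 4509359 in knockdown-labelled regions; the step was not shown to be 1 count, so no count model was run and no counting interval is given.

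Ratios and correlations were tested with 100000 permutations in Python 3.11.15, two-sided. The 169 pairs of regions within groups were compared for duplicates and none was found. The fit was tested on simulated data. Members and gene lists were chosen with earlier results of these data known. Named genes were the members, the genes of each list that passed, the 4 of lowest p and the 2 of highest mean in each list, and the 5 genes with the highest r for each member above background. Coordinates are GENCODE M21 (GRCm38), matched by symbol, and promoter sequences are RefSeq (GRCm38.p6). Neil2, Serpina1c, Cyp3a11 and Mup3 were listed and not analysed here. Some genes of the lists are not reported here. Alternatives were other scalings, background subtraction, a pseudocount of 50, a filter to genes above background, other model settings, covariates and left-out regions.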

Additional observations from a re-analysis of the deposited data

How the results depend on the processing

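These values are limited by regions that share mice, by probe readings with a background, and by totals that differ between the groups. As deposited, where each group had its own scale, 14 genes were higher and 19222 lower, and all 7 members were lower and passed (Dnmt1 -0.54, Uhrf1 -0.56, Dnmt3a -0.42, Dnmt3b -0.38, Tet1 -0.55, Tet2 -0.73, Tet3 -0.58), so that Dnmt3a and Dnmt3b were reversed. The Tet2 difference was below 0 under 18 of 18 alternatives and passed under 5. It did not pass, and 0 members were then lower, with housekeeping scaling (-0.12), the same total (-0.17), TMM (-0.19), the same upper quartile (-0.19), quantile normalization (-0.20), background subtraction (-0.33), region weights (-0.17), the rank-sum test (-0.23), without control regions 6 and 7 (-0.18), or with a covariate for the log2 total (-0.13), the hypoxia (-0.075), T or NK cell (-0.12) or hepatocyte list (-0.25). Housekeeping scaling made 1 member higher, Dnmt3b (0.23).

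Signs turned for members that did not pass: Dnmt1 was 0.078 with housekeeping scaling, 0.024 with the same total, 0.020 with quantile normalization, 0.0076 with the same upper quartile, 0.15 with the T or NK cell list, 0.0077 with the hepatocyte list and 0.0033 without knockdown-labelled region 1. Uhrf1 was 0.0017 with the same total, 0.055 with housekeeping scaling, 0.12 with the T or NK cell list and 0.024 with the hepatocyte list. Tet1 was 0.010 with the same total and 0.063 with housekeeping scaling, Tet3 was 0.034 with housekeeping scaling, and Dnmt3a was -0.054 with the hypoxia list. The Tet1 to Tet3 ratio was -0.18 after background subtraction and -0.0025 without knockdown-labelled region 13. The causes were not tested.

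The number of genes higher was 478 with quantile normalization, 470 with housekeeping scaling, 417 with the S phase list, 133 without control regions 6 and 7, 23 with the log2 total, 1 with the T or NK cell list and 0 with the hypoxia list. The number lower was 53 with housekeeping scaling, 146 with the same total, 222 with TMM, 213 with the same upper quartile, 226 after background subtraction, 1495 with the S phase list, 163 without control regions 6 and 7, 4 with the log2 total, 2 with the T or NK cell list and 0 with the hypoxia list. Leaving out 1 region gave 141 to 333 genes higher and 204 to 1109 lower, a Tet2 difference of -0.24 to -0.19, with 0 to 1 members lower, a Dnmt1 difference of -0.069 to 0.0033 and a Tet1 to Tet3 ratio of -0.0025 to 0.059.

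The planned edgeR test was not run, because the step could not be shown to be 1 count. No paired analysis was possible because replicate numbers only name the regions of a group and no label gives a mouse.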
